A study of Mus musculus with 4 samples.

Results

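The cells described here are naive-type CD8 T cells of the mouse ovary, 224 of the 4918 leukocytes that passed the filters and 224 of 397 CD8 T cells. They were chosen by measured transcripts, with each cell scored on raw counts of unique molecular identifiers (UMIs, counted transcript molecules). A cell had to carry at least 2 UMIs of Cd3d, Cd3e and Cd3g together and at most 1 of the B cell genes Cd79a and Ms4a1. It also needed at least 2 UMIs of Cd8a and Cd8b1 and none of Cd4. Of 7 genes of effector, memory and innate-like cells (Ccl5, Il2rb, Ly6c2, Klra7, Klre1, Gzmk and Cxcr6) it could hold at most 2 UMIs in sum. The levels of these 15 genes therefore follow from the choice of cells and are given only as a description.

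CD8 T cells read peptides on MHC class I molecules through a T cell receptor and the CD8 coreceptor. Before they meet their antigen they are called naive: they circulate between blood and lymph nodes by homing receptors such as the chemokine receptor Ccr7, survive on interleukin-7, and hold a resting program kept by the transcription factors Lef1 and Tcf7. After antigen or strong cytokine signals they turn to memory or effector forms that express Cd44, Ccl5, granzymes and receptors for entry into tissues.

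The series profiled CD45-positive cells sorted from the ovaries of female C57BL/6J mice by droplet single-cell RNA sequencing. The gonadotropin group is 5 mice aged 10 to 12 weeks whose ovaries were taken 48 h after gonadotropin, a class of hormone that makes follicles grow and ovulate. The untreated group is 5 mice of the same strain, sex and age, labelled untreated and described in the series' design as saline controls, with ovaries taken at the same time. A separate hashtag antibody marked the cells of each mouse, and each group was then pooled and sequenced as 1 library. A library effect and the treatment therefore cannot be told apart for any comparison below, and the spread between mice holds no spread between libraries. The sort took every leukocyte that remained in the dissected ovary, and the labels name no step that separates cells in the vessels from cells in the tissue.

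Naive-type CD8 T cells numbered 88 in the gonadotropin and 136 in the untreated group. Mice 1 to 5 of the gonadotropin group gave 17, 19, 11, 29 and 12 of them, and mice 1 to 5 of the untreated group gave 38, 30, 15, 12 and 41. Median depth per cell was 8618 UMIs over 2715.5 genes in gonadotropin mice and 8963 UMIs over 2742.5 genes in untreated mice. Summed over its cells, a mouse contributed between 102807 and 397682 UMIs. The libraries share 4 cell barcodes, and 0 of them are among these cells. Of the 693 hashtag doublets of the gonadotropin library 1 met the same UMI limits (0.144%, 95% Clopper-Pearson interval 0.00365% to 0.801%), and of the 655 of the untreated library 8 did (1.22%, 0.529% to 2.39%). These doublets were left out, and intervals cover counting error only.

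The name of the cells was checked against genes outside the rule. Lef1 was detected in 100% of the 224 cells, Tcf7 in 96.9%, Il7r in 95.1%, Ccr7 in 89.3% and Dapl1, a gene known from naive CD8 T cells, in 62.9%. Of the B cells, which should lack most of these transcripts, 4.96% held a UMI of Lef1, 1.88% of Tcf7, 0.813% of Il7r and 0.0856% of Dapl1, at median depths of 6172 UMIs in gonadotropin and 7115 UMIs in untreated mice. Ccr7 was detected in 54.9% of B cells, so it is not particular to T cells here. The 173 CD8 T cells above the effector limit are called memory and innate-like here. Of them 87.3% held a UMI of Lef1, 88.4% of Tcf7, 80.9% of Il7r, 59.5% of Ccr7 and 49.7% of Dapl1. Detection of these genes alone therefore does not set the naive-type cells apart from other CD8 T cells. Among the rule's own genes, Cd8b1 was found in 100% of the 224 naive-type cells and Cd8a in 83.0%. The adhesion receptor gene Cd44, high in memory cells, was detected in 8.93% of the cells, S100a4 in 2.23%, the T-bet gene Tbx21 in 0.446%, Gzmb in 0.446% and Mki67, a gene of dividing cells, in 0.446%. Other genes linked to effector and memory cells were common: Nkg7 was detected in 83.9% of the naive-type cells, Klrd1 in 74.6%, Ahnak in 38.8% and Id2 in 37.9%. In memory and innate-like CD8 T cells these stood at 96.5%, 83.2%, 70.5% and 54.9%. No naive-type cell held a UMI of Ifng, Xcl1 or Zbtb16, which allows up to 1.34% of cells with a UMI of each and does not limit the cells that express it. Cd8a and Cd8b1 are part of the rule, so their detection says nothing further about the name. Lef1 and Dapl1 lie outside the rule and were detected, though both were also common in memory and innate-like CD8 T cells.

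The constant chain Trbc2 of the beta receptor was detected in 98.2% of the cells, Trac of the alpha receptor in 73.7% and Trdc of the delta receptor in 6 cells. A variable beta segment was captured in 65 of the 224 cells. They spread over 20 segments, and the most frequent, Trbv13-2 and Trbv3, were seen in 8 cells each, both in 5 mice. At this capture rate no more than the spread over segments can be read.

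Cells near the limits of the rule looked as follows. The 120 cells with 0 effector UMIs had Lef1 at 1475 CPM (UMIs scaled by all UMIs of those cells, as in the usual CPM measure), the 79 with 1 UMI at 1527 and the 25 with 2 UMIs at 1372. Just outside, the 19 cells with 3 UMIs had Lef1 at 1430.2 CPM and Cd44 in 26.3% of cells. The 14 cells with 4 UMIs had Lef1 at 1354 CPM and Cd44 in 42.9% of cells, against 9.17%, 10.1% and 4% with 0, 1 and 2 effector UMIs. The 140 CD8 T cells with 5 or more effector UMIs had Lef1 at 890 CPM and Ccr7 in 52.9% of cells. Median depth was 11184 UMIs in the cells with 3 effector UMIs and 8465 UMIs in those with 0. At the Cd8 limit, 8 cells with 1 UMI of Cd8a and Cd8b1 lay outside and 6 with 2 UMIs inside, and 212 of the 224 had at least 4. The 8 cells outside had no UMI of Nkg7, which 33.3% of the 6 cells inside carried. Of the effector genes of the rule, the cells held 53 UMIs of Il2rb, 37 of Cxcr6, 30 of Ly6c2, 9 of Ccl5 and 0 of Klra7, Klre1 and Gzmk. Of B cells, a mean of 6.56% in gonadotropin and 5.28% in untreated mice held at least 1 UMI of these genes.

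Set beside naive-type CD4 T cells (353 cells with Cd4, no Cd8a or Cd8b1, no Foxp3 and the same effector limit), the CD8 cells differed in level as follows. Over the 10 mice, 2908 genes had a median of at least 50 CPM in naive-type CD8 T cells. Of these, 22 were at least 3 times higher by median and higher in every mouse than in naive-type CD4 T cells. Of 3038 genes with such a median in naive-type CD4 T cells, 20 were lower in the CD8 cells by the same measure. These are levels per mouse, given with no test because the cells were selected on related transcripts, and the genes named from them were picked after their values were seen. Nkg7, a granule protein of cytotoxic cells, stood at a median of 290.2 CPM in naive-type CD8 and 3.08 CPM in naive-type CD4 T cells. The transcription factor Runx3, which silences Cd4 in the CD8 lineage, stood at 178 and 44.4 CPM. Ccr9, a chemokine receptor of gut homing, stood at 127 and 3.09 CPM, the CD94 receptor gene Klrd1 at 215 and 19.9 CPM, and the protease gene Ctsw at 88.8 and 13.0 CPM. Itgae, the integrin CD103 that binds E-cadherin on epithelium, had a median of 53.8 CPM in naive-type CD8 T cells, in 32.1% of cells, and was at 0 by median in naive-type CD4 T cells. On the other side, the helper ligand Cd40lg had a median of 0 CPM in naive-type CD8 and 145 CPM in naive-type CD4 T cells, Trat1 had 39.9 and 223 CPM, the folate receptor family gene Izumo1r had 4.01 and 51.8 CPM, and Ly6a had 10.2 and 125 CPM. Lef1 was close in both, at 1545 and 1515 CPM.

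**Figure D1:**
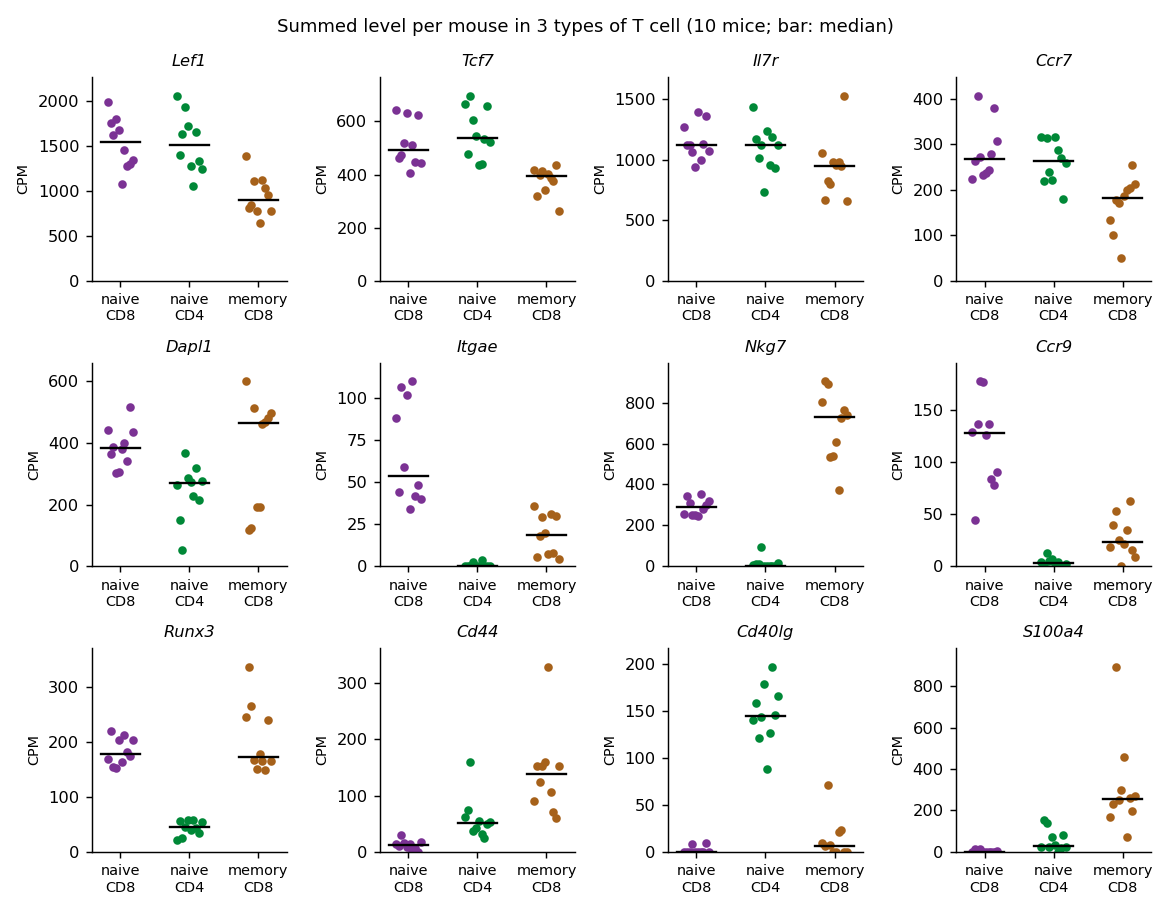
Levels of 12 genes (CPM, y axis) summed per mouse in naive-type CD8, naive-type CD4 and memory and innate-like CD8 T cells. Each point is 1 of 10 mice and the bar is the median: Nkg7, Ccr9, Runx3 and Itgae are near the floor or low in naive-type CD4 T cells, while Cd44 and S100a4 are highest by median in memory and innate-like CD8 T cells.

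Memory and innate-like CD8 T cells are the 173 CD8 T cells above the effector limit. Of 3091 genes with a median of at least 50 CPM in them, 29 were lower in naive-type cells by the same measure. Of the 2908 genes with such a median in naive-type cells, 2 were higher there. Cd44 stood at a median of 12.3 CPM in naive-type and 138 CPM in memory and innate-like cells, the calcium-binding protein S100a6 at 0 and 456 CPM, the galectin Lgals1 at 68.9 and 262 CPM and the large scaffold protein Ahnak at 97.5 and 350.4 CPM. The chemokine receptor Cxcr3 (0 and 53.7 CPM), known for entry into inflamed tissue, followed the same order. The 2 genes higher in naive-type cells were Ccr9, at 127 and 23.1 CPM, and the amino acid transporter Slc6a19, at 52.2 and 12.5 CPM. Dapl1, one of the named markers of the naive-type cells, did not separate the CD8 types: its median was 384 CPM in naive-type and 464 CPM in memory and innate-like cells. Of receptors for hormones of the cycle, no cell held a UMI of Prlr, Lhcgr, Fshr or Pgr, though transcripts of low abundance can be missed in cells that express them. The estrogen receptor Esr1 had a median of 21.0 CPM, and the glucocorticoid receptor Nr3c1 had 154 CPM.

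The first comparison between the groups was that of cell numbers. Naive-type CD8 T cells were a smaller part of the leukocytes, of the T cells and of the CD8 T cells in gonadotropin mice. Their share of the kept cells was 3.02%, 5.03%, 3.79%, 3.50% and 3.30% in gonadotropin mice 1 to 5, and 7.52%, 4.62%, 4.72%, 4.05% and 5.65% in untreated mice 1 to 5. Gonadotropin mouse 2 was above 3 of the untreated mice, so the groups overlap. The means were 3.73% ± 0.779 in gonadotropin and 5.31% ± 1.36 in untreated mice (SD, n = 5 each), a difference of −1.58 percentage points (exact two-sided permutation test over 252 assignments, p = 0.0476). As a part of T cells the means were 14.9% ± 1.64 in gonadotropin and 19.4% ± 3.66 in untreated mice (exact permutation p = 0.0317). As a part of CD8 T cells they were 49.5% ± 5.82 in gonadotropin and 63.6% ± 8.83 in untreated mice (exact permutation p = 0.0238). All 3 had an adjusted p of 0.0476 in these exact permutation tests. Memory and innate-like CD8 T cells, the complement within CD8 T cells, made up 3.83% ± 0.822 of the kept cells in gonadotropin and 3.01% ± 0.814 in untreated mice. Naive-type CD4 T cells were lower by mean in gonadotropin mice as well, at 6.67% ± 1.42 of the kept cells against 8.06% ± 2.79 in untreated mice. The shares of these other types among kept cells were not tested.

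The differences kept their sign but not their call. Leaving out any 1 of 7 mice (gonadotropin 1, 3, 4 or 5, untreated 1, 2 or 5) took all 3 shares past an adjusted p of 0.05 (largest 0.103, exact permutation tests). When each cell was thinned to 2000 UMIs before the rule was applied, 166 of 217 CD8 T cells met it. Thinning also lowers the effector UMIs, so cells above the limit at full depth can enter this class. Its mean share of CD8 T cells was 71.3% in gonadotropin and 83.5% in untreated mice. The differences for kept, T and CD8 T cells were −0.489, −1.85 and −12.1 percentage points (adjusted p = 0.421, 0.421 and 0.381, exact permutation tests).

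**Figure D2:**
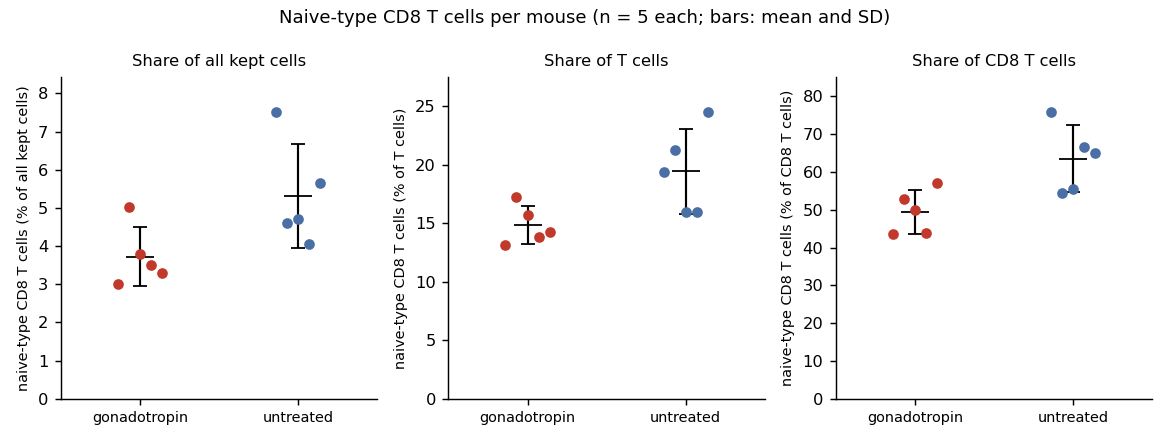
Naive-type CD8 T cells as a percentage (y axis) of all kept cells, of T cells and of CD8 T cells, with 1 point per mouse and the mean and SD of 5 gonadotropin and 5 untreated mice. The means of gonadotropin mice are lower in the 3 panels, at 3.73% against 5.31%, 14.9% against 19.4% and 49.5% against 63.6%, and the points of the groups overlap.

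The second comparison asked which transcripts differed within the cells. Counts were summed per mouse, and CPM here are scaled by all UMIs of a mouse's naive-type CD8 T cells. The test covered 2546 genes, of which 11 rose and 3 fell with gonadotropin (edgeR's quasi-likelihood test over 5 against 5 mice, adjusted p below 0.05), that is 0.432% and 0.118% of the genes, or 0.55% in both directions. The AP-1 subunit Junb fell. The naive cell transcription factor Lef1 rose, and so did Tox, the neurotrophin receptor Ntrk3, the kinase Tnik, the splicing regulator Mbnl2, Dipk1a, the phosphodiesterase Pde3b and the sialyltransferase St6galnac3. The other 5 were Gm42418, a gene model known to collect reads of ribosomal RNA, and the long noncoding RNAs 4933406I18Rik and 1700062C10Rik, which rose, and the ribosomal protein genes Rps27 and Rps26, which fell. An unadjusted p under 0.05 was reached by 308 genes, 12.1%, and the mice of the groups did not overlap in 70 genes, 2.75%. The median log2 fold change over all genes tested was 0.01, and 1300 of them (51.1%) had a positive value.

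How far the list reaches depends on single mice. Without gonadotropin mouse 2 there were 53 calls, 23 higher and 30 lower, so the balance of directions turned. DESeq2 called 4 higher and 6 lower, of which 5 in all are among the 14. Without gonadotropin mouse 1, 3, 4 or 5 there were 3, 8, 3 and 9, and without untreated mouse 1 or 5 there were 3 and 2. Junb passed in each of the 10 fits that leave out a mouse, as did Gm42418, while Lef1 and Tox passed in 6 of 10, Ntrk3 in 7, Tnik and Mbnl2 in 3, Dipk1a in 2 and Pde3b in 1. All 14 genes kept their direction in these fits and in every other fit that tested them.

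Junb dimerises with Fos proteins and is one of the first genes that T cells transcribe after a signal. It lies on chromosome 8 (84976909 to 84978748, minus strand, GRCm38.p6). Its level was 217, 198, 262, 236 and 297 CPM in gonadotropin mice 1 to 5, against 415, 404, 418, 623 and 450.1 CPM in untreated mice 1 to 5. Every gonadotropin mouse was below every untreated mouse, and untreated mouse 4 stood apart from the other 4 of its group. The means were 242 ± 38.7 CPM in gonadotropin and 462 ± 91.2 CPM in untreated mice (SD, n = 5 each), a log2 fold change of −0.96 ± 0.15 (SE; edgeR adjusted p = 0.000398), or −0.88 without untreated mouse 4. Counted per cell after thinning to 2000 UMIs, a UMI of Junb was seen in 37.0% ± 10.2 of cells per gonadotropin mouse and in 56.7% ± 17.4 per untreated mouse (exact permutation test, p = 0.0556, adjusted p = 0.417 over 30 genes). Unthinned, these shares were 72.0% in gonadotropin and 84.2% in untreated mice, and 32.6% of B cells held a UMI after the same thinning. With 5 against 5 mice, 1 gene alone cannot pass the adjustment over 30 genes in this permutation test.

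Other genes of the early response list pointed the same way without passing. Of 13 genes tested, Junb was called lower, 10 had a negative log2 fold change and the median was −0.18, against 0.01 over all genes. A positive log2 fold change was seen in 51.1% of all genes tested. Fos, the partner of Junb, was at 122, 99.0, 175, 55.1 and 55.7 CPM in gonadotropin mice 1 to 5 and at 304, 110.3, 188, 77.8 and 156 CPM in untreated mice 1 to 5, with overlap between the groups (log2 fold change −0.95 ± 0.29, edgeR adjusted p = 0.144). The RNA-decay protein Zfp36 had a log2 fold change of −0.58, the phosphatase Dusp2 of −0.57 and Jund of −0.18, while Jun had 0.25. Egr1, Nr4a1 and Dusp1 were too low to be tested. When only cells with 0 effector UMIs were used, the median of the list was 0.06 with fewer genes tested.

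The promoters of Junb and Fos are shown because these AP-1 genes had the lowest log2 fold changes of the early response list. The 250 bases before each start site, 5′ to 3′, are from RefSeq on GRCm38.p6, at chr8:84978749-84978998 (minus strand) for Junb and chr12:85473640-85473889 (plus strand) for Fos. Capitals mark the motifs found on either strand. The search took the cAMP response element TGACGTCA and the shorter TGACG that lies within it, the AP-1 site TGANTCA, the CCAAT box, the TATA box as TATAA and the CArG box.
Junb: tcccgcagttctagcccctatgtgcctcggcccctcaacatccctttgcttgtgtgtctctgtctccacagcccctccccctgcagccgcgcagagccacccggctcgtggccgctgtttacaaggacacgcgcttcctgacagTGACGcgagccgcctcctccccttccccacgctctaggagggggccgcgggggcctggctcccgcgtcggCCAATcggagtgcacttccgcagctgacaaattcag
Fos: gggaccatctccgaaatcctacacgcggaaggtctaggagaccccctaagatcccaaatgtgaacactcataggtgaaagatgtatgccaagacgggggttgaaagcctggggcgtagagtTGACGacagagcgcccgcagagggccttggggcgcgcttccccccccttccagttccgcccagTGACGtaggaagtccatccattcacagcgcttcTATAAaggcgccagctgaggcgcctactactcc
Both promoters hold TGACG, which 17.8% of 32851 mouse promoters of this length hold, once in Junb at −106 to −102 and in Fos at −129 to −125 and −66 to −62, counted in bases from the start site. Junb also holds CCAAT at −36 to −32, found in 33.8% of promoters, and Fos holds TATAA at −33 to −29, found in 22.8%. The letters of the other motifs, the full cAMP response element in 1.55% of promoters, the AP-1 site in 6.75% and the CArG box in 1.47%, are in neither window. A match describes the sequence only.

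Lef1, with Tcf7 the keeper of the naive state and a partner of beta-catenin, was higher in each gonadotropin mouse than in any untreated mouse. It lies on chromosome 3 (131110297 to 131224357). Its level was 1993, 1755, 1629, 1807 and 1679 CPM in gonadotropin mice 1 to 5, against 1083, 1459.8, 1276, 1303 and 1350.3 CPM in untreated mice 1 to 5 (log2 fold change 0.43 ± 0.09, edgeR adjusted p = 0.0208). No untreated mouse reached the level of the lowest gonadotropin mouse. Of 17 naive transcription factors tested, Lef1 was the 1 called, 12 had a positive log2 fold change and the median was 0.12. Over all genes tested, 0.55% were called and 51.1% had a positive log2 fold change. Zeb1 (0.56 ± 0.17), a zinc-finger transcription factor, and Bach2 (0.29 ± 0.10), which restrains effector genes, had higher values in every gonadotropin mouse than in any untreated mouse but did not pass (edgeR adjusted p = 0.135 and 0.212). Tcf7 stood at 0.16 ± 0.14 (adjusted p = 0.685), and Klf2, the factor that drives S1pr1, at −0.30 ± 0.11 (adjusted p = 0.216), with every gonadotropin mouse (640.2 to 795 CPM) below every untreated mouse (859.5 to 1002 CPM). Such a lack of overlap was seen in 2.75% of all genes tested. With counts of ribosomal protein, mitochondrially encoded and Gm42418 transcripts left out before scaling, Lef1 had a log2 fold change of 0.42 and an adjusted p of 0.0603 in edgeR.

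Tox, a nuclear factor of thymic selection that also marks chronically stimulated CD8 T cells, lies on chromosome 4 (6686353 to 6991557). It was at 298, 138, 291, 468 and 278 CPM in gonadotropin mice 1 to 5 and at 100.3, 221, 90.6, 165 and 138.3 CPM in untreated mice 1 to 5. Gonadotropin mouse 2 lay within the untreated range and the other 4 above it (log2 fold change 1.04 ± 0.23, edgeR adjusted p = 0.0204). Without gonadotropin mouse 4 the log2 fold change was 0.73 and the adjusted p 0.266. The other tested members of the costimulation and checkpoint list, Cd226 (0.31), Slamf6 (0.31), Cd27 (0.22) and Cd28 (0.07), did not pass, and Pdcd1, Lag3, Havcr2 and Tigit, the receptors that accompany Tox in exhausted cells, were too low to be tested.

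Ntrk3, the receptor of neurotrophin-3, had the largest log2 fold change of the 14 genes and the lowest mean level, 6.38 in log2 CPM. It lies on chromosome 7 (78179986 to 78581034). It was at 142, 82.5, 145, 74.8 and 83.5 CPM in gonadotropin mice 1 to 5, against 17.2, 58.8, 13.9, 48.6 and 30.2 CPM in untreated mice 1 to 5, with no overlap (1.58 ± 0.32, edgeR adjusted p = 0.0173).

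Tnik, a kinase that binds the beta-catenin and TCF complex, lies on chromosome 3 (28261901 to 28670585). It was at 352, 269.6, 485, 551 and 389.7 CPM in gonadotropin mice 1 to 5, against 244, 239, 250.97, 185 and 264 CPM in untreated mice 1 to 5 (0.73 ± 0.16, edgeR adjusted p = 0.0212). The groups did not overlap, though gonadotropin mouse 2 was close to the untreated range. Mbnl2, on chromosome 14 (120275652 to 120431698), was at 339, 314, 310.3, 268 and 325 CPM in gonadotropin mice 1 to 5, against 152, 235, 174, 233 and 176 CPM in untreated mice 1 to 5 (0.66 ± 0.16, edgeR adjusted p = 0.0437). Dipk1a, on chromosome 5 (107908042 to 107987077), averaged 195 ± 21.8 CPM in gonadotropin and 116 ± 28.3 CPM in untreated mice (SD, n = 5 each; 0.80 ± 0.20, edgeR adjusted p = 0.0437). Both were without overlap between the groups.

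Pde3b, which breaks down cAMP and cGMP, and the noncoding RNA 4933406I18Rik lie beside each other on chromosome 7, at 114415222 to 114537938 and 114315479 to 114415161, with 60 bases between them. Pde3b averaged 842 ± 173 CPM in gonadotropin and 571 ± 63.0 CPM in untreated mice, and gonadotropin mouse 2, at 599.7 CPM, lay within the untreated range of 498 to 634 CPM (0.53 ± 0.13, edgeR adjusted p = 0.0437). 4933406I18Rik averaged 240.3 ± 77.4 CPM in gonadotropin and 136 ± 27.0 CPM in untreated mice, also with overlap (0.91 ± 0.20, edgeR adjusted p = 0.0204). Pde3b was the 1 gene called of 7 tested in the list of cAMP and CREB targets, in which 5 had a negative log2 fold change and the median was −0.20, or 0.22 when only cells with 0 effector UMIs were used. Over all genes tested, 0.55% were called and 51.1% had a positive log2 fold change. Sik1, a kinase gene induced by cAMP, had −0.89 ± 0.27 (edgeR adjusted p = 0.145), at 35.4 to 97.0 CPM in gonadotropin and 84.6 to 136 CPM in untreated mice. St6galnac3, on chromosome 3 (153198274 to 153725133), averaged 100.3 ± 28.6 CPM in gonadotropin and 50.9 ± 17.3 CPM in untreated mice, with overlap (1.13 ± 0.27, edgeR adjusted p = 0.0411).

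**Figure D3:**
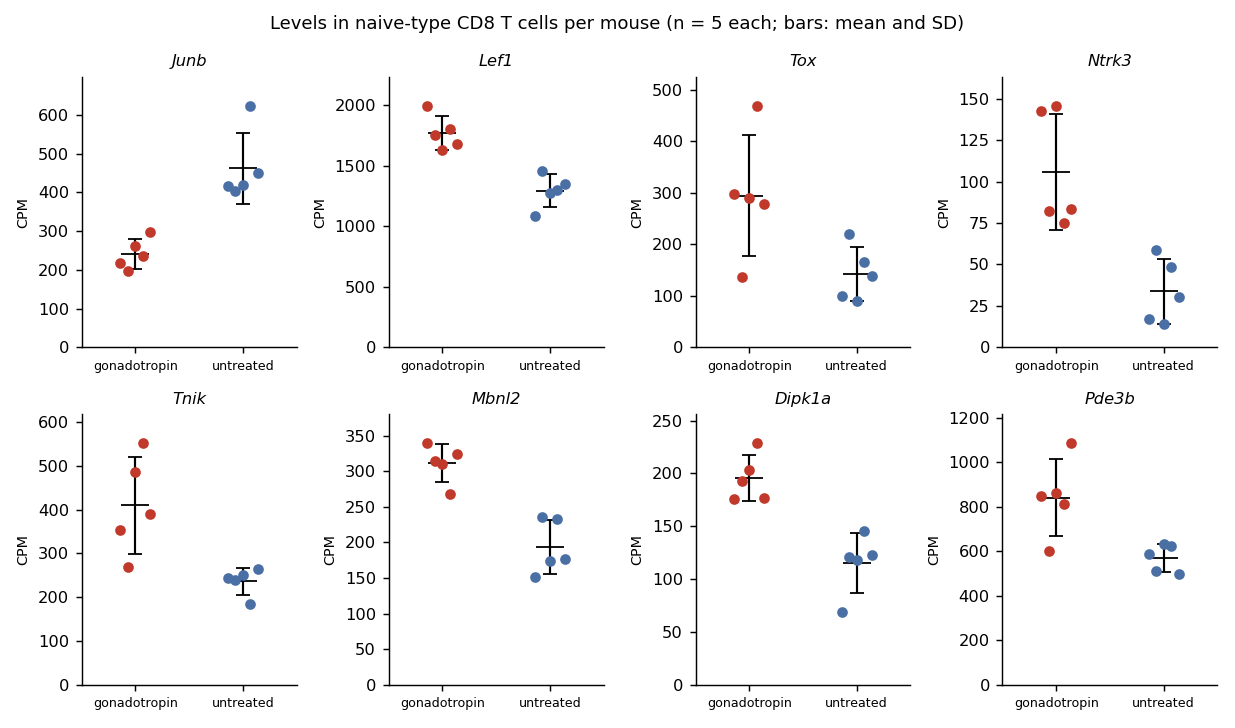
Levels (CPM, y axis, from 0) of 8 genes past the threshold, with 1 point per mouse and the mean and SD of 5 gonadotropin and 5 untreated mice. Junb is lower in every gonadotropin mouse, at 198 to 297 against 404 to 623 CPM, the other 7 are higher by mean, and single mice of the groups overlap for Tox and Pde3b.

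The remaining lists showed few calls. In all, 271 list genes were tested and 4 were called, Junb, Lef1, Tox and Pde3b, beside 14 of 2546 genes (0.55%) over the whole table. The lists were drawn up with earlier results of these data known and their counts are a description. Homing and adhesion had 0 of 14 called: the egress receptor S1pr1 stood at −0.45 ± 0.17, the oxysterol receptor Gpr183 at −0.59 ± 0.22 and the gut integrin chain Itgb7 at 0.51 ± 0.19 (edgeR adjusted p from 0.223 to 0.224). Ccr7 stood at −0.06 and the retention marker Cd69 at 0.08. T cell receptor signalling had 0 of 25 called with a median of 0.11, among them the adaptor Skap1 (0.33), Cd247 (0.43) and Cd2 (−0.49). The NF-kB list had 0 of 9 called and a median of −0.27. Its inhibitor gene Nfkbia was at 122, 160, 87.3, 173 and 408 CPM in gonadotropin mice 1 to 5 and at 246, 379, 321, 340.4 and 282 CPM in untreated mice 1 to 5 (−0.78 ± 0.22, edgeR adjusted p = 0.117). Gonadotropin mouse 5 was above every untreated mouse and the other 4 below them all. Tnfaip3, another brake of the pathway, stood at −0.67 ± 0.23 (adjusted p = 0.201).

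Genes of biosynthetic growth had 0 of 11 called and a median of −0.36, and the 3 with an unadjusted p under 0.05 were the translation factors Eif4a1 (−0.55) and Eif5a (−0.49) and nucleolin, Ncl (−0.39). The type I interferon list had 0 of 14 called and a median of 0.04 (−0.09 with no filter), cytokine receptors 0 of 12 and 0.03 (−0.06 with no filter), MHC class I 0 of 18 and −0.09, heat shock chaperones 0 of 15 and −0.01, JAK, STAT and SOCS genes 0 of 6 and 0.19 (−0.34 with no filter on low counts), glycolysis 0 of 7 and −0.20, and survival and apoptosis 0 of 9 and −0.01. Of the effector and memory list 8 of 32 genes were high enough to be tested and 0 were called, with Ctsw at 0.73, Id2 at −0.61, Ahnak at −0.58 and Nkg7 at −0.13. The glucocorticoid list had 0 of 6 called, with the known target Tsc22d3 at −0.06. In the count of cells with a UMI after thinning, 0 of 30 genes passed (exact permutation tests, smallest adjusted p = 0.238). That smallest value belonged to Hspa1a, seen in 10.8% ± 8.41 of cells per gonadotropin mouse and in 0% per untreated mouse, or in 17.8% and 3.33% unthinned, against 5.77% of thinned B cells. Its unadjusted p of 0.00794 is the smallest that an exact permutation of 5 against 5 mice can give. A single gene therefore cannot pass the adjustment over 30 genes, and the count of 0 says little about these shares.

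**Figure D4:**
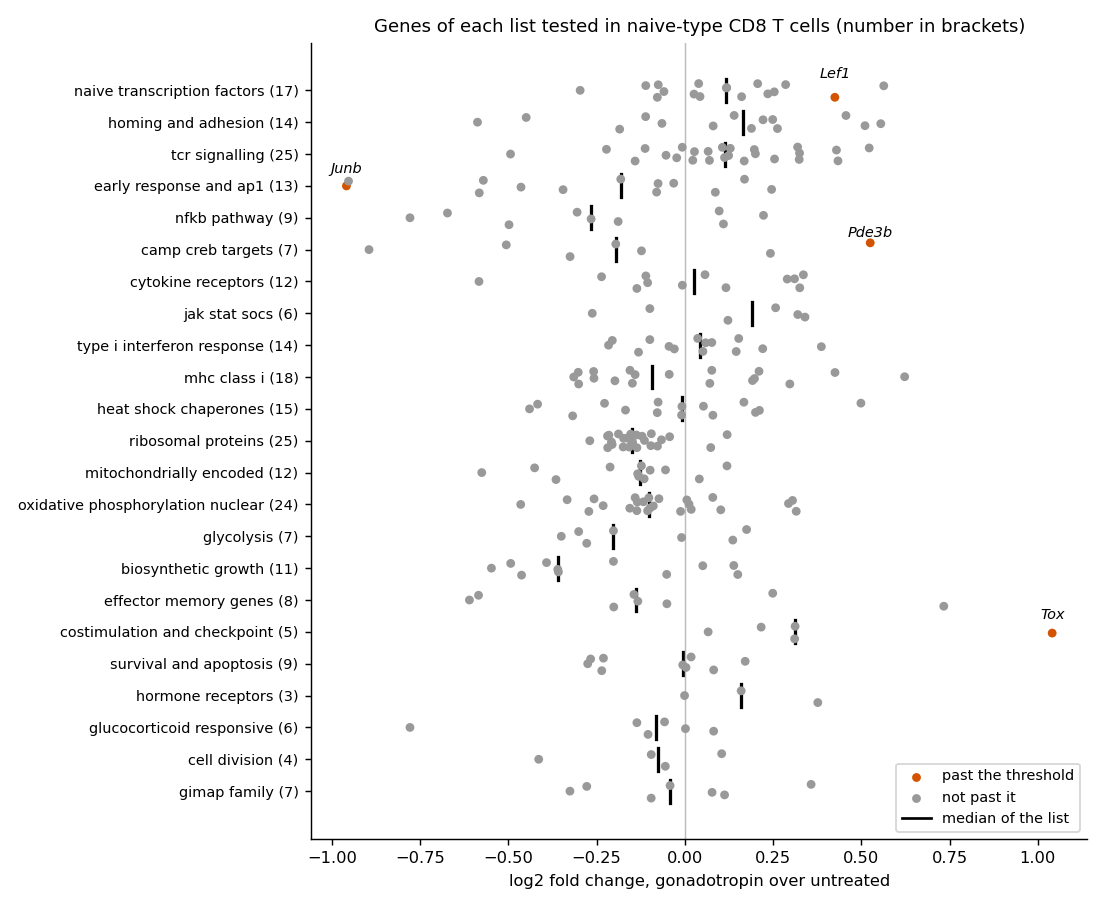
Log2 fold change of gonadotropin over untreated mice (x axis) for the genes of 23 lists tested in naive-type CD8 T cells, with the number tested in brackets. Orange points passed the threshold, grey points did not and the black line is the median of a list: the 4 orange points are Junb, Lef1, Pde3b and Tox.

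Transcripts of genes known from other cell types were also counted in these cells. Of the sums below, only that of the erythrocyte genes separated the groups. Transcripts of the 5 erythrocyte genes summed to 18.6 to 74.6 CPM in gonadotropin and 0 to 7.35 CPM in untreated mice, without overlap, and those of the 14 myeloid genes to 138 to 204 and 107 to 146 CPM. Hba-a1 and Hba-a2 were at 0 in untreated mice, and of the myeloid genes Cd68 and S100a8 were at 0 in gonadotropin and C1qa, C1qc, S100a9 and Itgam in untreated mice. The 14 B cell genes summed to 193 to 353 and 216 to 292 CPM, with Pax5 and Cd22 at 0 in both groups. The 10 NK cell genes summed to at most 27.8 CPM in gonadotropin and 10.1 CPM in untreated mice, and Ncr1 and Klrb1c were at 0. The 15 genes of other ovarian cells summed to 126.5 to 307.1 CPM in gonadotropin and 148.4 to 250.97 CPM in untreated mice. These sums came from 2 genes with a UMI in gonadotropin and 4 in untreated mice. The other 13 genes were at 0 in gonadotropin mice. The steroid enzyme Cyp11a1 and the granulosa genes Inha and Foxl2 were at 0 in both groups. The part of these transcripts in the differences was not tested.

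The length of genes moved with the groups as well. The span from first to last base of a gene was known for 2499 of the 2546 genes, with a median of 38.6 kb. The 10 genes called higher with a known span had a median of 139 kb and none was shorter than 36.5 kb, while Junb, Rps27 and Rps26 spanned 0.982 to 1.98 kb. With the tested genes ordered by span and cut into 4 equal parts, in the part with the shortest spans (median 5.13 kb) 25.6% had a positive log2 fold change and the median was −0.14, and in the part with the longest (median 139 kb) 73.6% were positive and the median was 0.15. The same order was seen in naive-type CD4 T cells (−0.12 and 0.09), in memory and innate-like CD8 T cells (−0.13 and 0.07) and in B cells (−0.12 and 0.11), which come from the same libraries. Of the 85 ribosomal protein genes tested 73 were negative, with a median of −0.15, and 10 of 12 mitochondrially encoded genes were negative, with mt-Nd4l lowest at −0.58 ± 0.16 (edgeR adjusted p = 0.11). Over all genes tested 51.1% were positive. Gm42418 stood at 7197 to 7933 CPM in gonadotropin and 4924 to 6031 CPM in untreated mice. The median share of mitochondrial UMIs per mouse was 2.18% ± 0.173 in gonadotropin and 2.31% ± 0.154 in untreated mice (SD, n = 5 each). The part of gene span in the differences was not tested. With ribosomal protein, mitochondrially encoded and Gm42418 counts left out before scaling, Junb had a log2 fold change of −0.97.

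The third comparison set the change in naive-type CD8 T cells beside that in the nearest types of the same mice. In naive-type CD4 T cells 2 of 3747 genes passed (0.0534%), Junb and St6galnac3, and in memory and innate-like CD8 T cells, with at least 10 cells in 4 gonadotropin and 4 untreated mice, 1 of 3316 (0.0302%), Fos. The log2 fold change of Junb was −0.96 ± 0.15 in naive-type CD8, −0.93 ± 0.17 in naive-type CD4 (adjusted p = 0.0167), −0.87 ± 0.19 in memory and innate-like CD8 T cells (adjusted p = 0.278) and −0.96 ± 0.08 in B cells (edgeR). The difference of its change between naive-type CD8 and naive-type CD4 T cells was −0.05 ± 0.23. Lef1 stood at 0.43 ± 0.09 in naive-type CD8 and 0.38 ± 0.11 in naive-type CD4 T cells. St6galnac3 stood at 1.13 ± 0.27 and, higher, at 1.74 ± 0.34 in the same order (edgeR adjusted p = 0.0411 and 0.0281). Ntrk3 stood at 1.58 ± 0.32 and 0.03 ± 0.30, Tox at 1.04 ± 0.23 and 0.20 ± 0.24, and Mbnl2 at 0.66 ± 0.16 and −0.19 ± 0.15. None of these differences passed: in the test of the difference itself Mbnl2 had 0.86 ± 0.22 (edgeR adjusted p = 0.374), Ntrk3 1.57 ± 0.43 (0.541) and Tox 0.82 ± 0.24 (0.983). In B cells St6galnac3 and Dipk1a rose too, by 0.41 ± 0.10 and 0.41 ± 0.09 (edgeR adjusted p = 0.0408 and 0.0272). Tnik, Pde3b and Mbnl2 stood at 0.60, 0.42 and 0.20 there and did not pass.

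Over all genes, 0 of 5087 (0%) differed in their change between naive-type CD8 and naive-type CD4 T cells (edgeR interaction with the mouse as a term, 10 mice), 232 had an unadjusted p under 0.05, and 2 passed with no filter on low counts. Maml3, a coactivator of Notch, had the smallest p (1.58 ± 0.34, edgeR adjusted p = 0.118). Against memory and innate-like CD8 T cells 1 of 4674 genes (0.0214%) differed, over 8 mice. This was Fhit, a dinucleotide hydrolase gene at a fragile site, with 2.12 ± 0.40 (edgeR adjusted p = 0.0157). In naive-type cells it was at 393, 160, 87.3, 86.6 and 74.2 CPM in gonadotropin mice 1 to 5 and at 8.60, 118, 119, 0 and 25.1 CPM in untreated mice 1 to 5, so gonadotropin mouse 1 was far above the rest. In memory and innate-like cells it was at 134, 118, 17.7, 56.7 and 140.3 CPM in gonadotropin mice 1 to 5 and at 93.0, 203, 211, 90.1 and 38.2 CPM in untreated mice 1 to 5, of which gonadotropin mouse 5 and untreated mouse 4 did not enter the test. Without gonadotropin mouse 1 the difference was 1.81 with an adjusted p of 0.267, and without untreated mouse 1 it was 1.82 with an adjusted p of 0.0665.

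**Figure D5:**
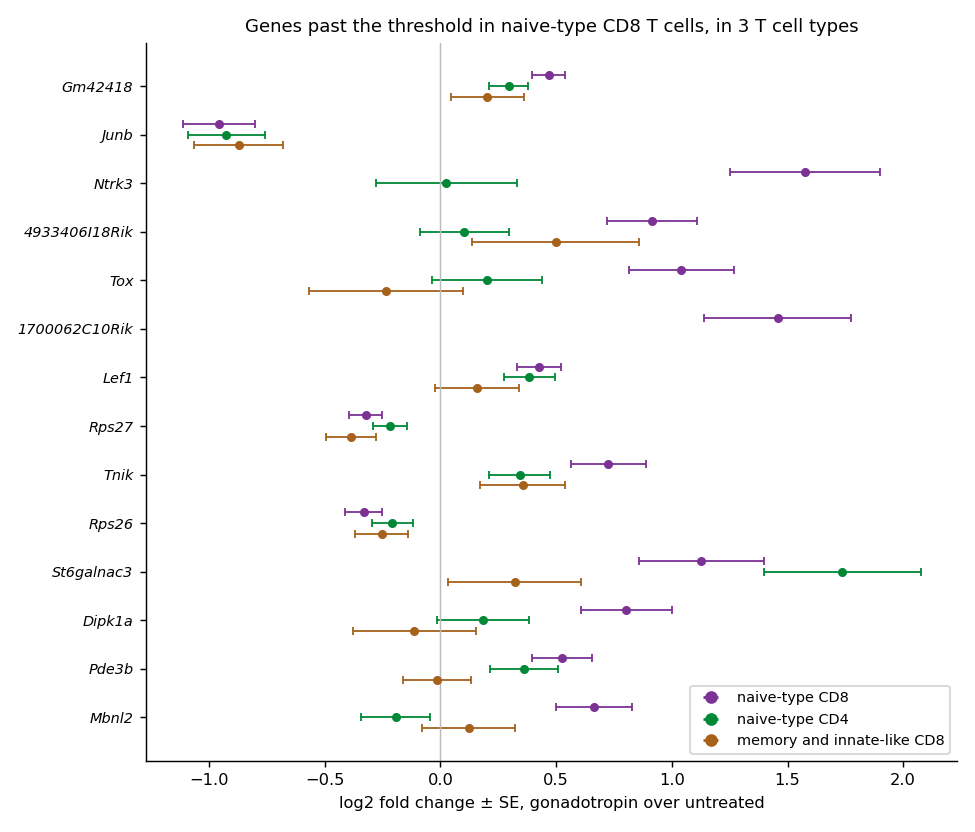
Log2 fold change ± SE of gonadotropin over untreated mice (x axis) of the 14 genes past the threshold in naive-type CD8 T cells, beside naive-type CD4 and memory and innate-like CD8 T cells. Junb lies between −0.96 and −0.87 in the 3 types, while Ntrk3, Tox and Mbnl2 stand at 1.58, 1.04 and 0.66 in naive-type CD8 and at 0.03, 0.20 and −0.19 in naive-type CD4 T cells, differences that did not pass a test. Genes too low in a type have no point there.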

How the data were processed

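CD45-positive ovarian cells of 5 gonadotropin and 5 untreated mice were used, 1 library per group. The deposited values are raw counts (UMIs per gene and barcode); per the submitters' processing notes, Seurat, Cell Ranger and bcl2fastq were used with mm10. Hashtag and mouse calls are the authors' deposited ones. Of 6468 barcodes, 4918 were used: those with 1 hashtag, 500 or more genes and less than 10% of UMIs from mitochondrial transcripts. scrublet, run through scanpy 1.11.5, marked 52 barcodes as doublets, 45 of the 1348 hashtag doublets among them, and 0 of the 224 cells.

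The mouse was the replicate. Counts were summed per mouse and tested with edgeR 4.0.16 (R 4.3.3; TMM factors 0.954 to 1.04, filterByExpr, quasi-likelihood F test, Benjamini-Hochberg adjustment). CPM use plain UMI totals, and SE is the size of the log2 fold change over the square root of F. Interactions used the mouse as a term and mice with at least 10 cells of both types. Shares were compared by exact permutation (scipy 1.17.1), whose smallest p is 0.00794. Positions and promoters are from RefSeq on GRCm38.p6, matched by symbol. On simulated data of 2591 tested genes, 50 genes each were changed by 1.5, 2, 3 and 4 times. The main test recovered 47.9% of changes of 1.5-fold and 84.8% of 2-fold, and 5.52% of its calls were false. The interactions recovered 56% (naive-type CD4) and 44% (memory and innate-like CD8) of 2-fold changes. More genes changed there than were called in the data, which loosens the adjusted threshold, so recovery in the data can be lower. The simulation held no library effect and drew the cell types of a mouse independently. The groups share mouse numbers only as names (correlations of same-numbered mice −0.07 to 0.011), so no pairing was assumed.

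Genes were named if they passed, had no overlap between mice and averaged 5 or more in log2 CPM, at most 15 in each direction, outside ribosomal, mt-, Gm, Rik, receptor segment, Xist and rule genes. Genes of the 32 lists and the 5 smallest p of an interaction may be named too. St6galnac3, Gm42418, the Rik genes, Rps26 and Rps27 were named after their values were seen. The scaling without ribosomal protein, mt- and Gm42418 counts was added after seeing the data. The cells, lists and tests were chosen with earlier results of these data known. Some genes are not reported here.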

Additional observations from a re-analysis of the deposited data

Results flagged for a closer look

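In the untreated group, Junb of naive-type CD8 T cells stood at 623 CPM in mouse 4, while the other 4 mice lay between 404 and 450.1 CPM. The gap is 0.791 of the range of the group, above the limit of 0.71 for 5 values. Of 34 groups of 5 values examined in this way 1 stood out, and chance gives about 1 in 20. Without this mouse Junb was lower in gonadotropin mice by a log2 fold change of −0.88 (edgeR adjusted p = 0.00173).

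The change of Fhit differed between naive-type and memory and innate-like CD8 T cells by 2.12 on the log2 scale in an interaction test over 8 mice (edgeR adjusted p = 0.0157). In naive-type cells alone its log2 fold change was 1.62 ± 0.44 (adjusted p = 0.091) and in memory and innate-like cells −0.74 ± 0.44 (adjusted p = 0.748), so neither passed by itself.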

How the results depend on the processing

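The 14 calls became 23 with no filter on low counts (12 higher, 11 lower), 26 with mice of at least 20 cells (1 gonadotropin and 3 untreated mice, the lone mouse assumed to vary like the others), 8 and 7 with at most 1 and 0 effector UMIs, 3 with the mouse number as a replicate block and 6 with the added scaling without ribosomal protein, mt- and Gm42418 counts. They stayed within 1.5 times with RLE scaling, doublets removed, equal cell numbers (14, but 3 higher and 11 lower) and DESeq2 1.42.0 (10, with 2320 genes given no adjusted p, Junb among them). Leaving out 1 mouse gave 2 to 53. Only the setting of at least 20 cells took Junb past the threshold (adjusted p = 0.0578). Share differences did not pass with at most 1 (−1.36, −4.00, −11.9 points of kept, T and CD8 T cells) or 0 effector UMIs (−1.08, −3.32, −11.8), nor after thinning (−0.489, −1.85, −12.1), and leaving out 1 mouse gave −1.91 to −1.03, −5.45 to −3.30 and −16.3 to −11.0. The interaction with naive-type CD4 T cells gave 2 calls with no filter, and that with memory and innate-like CD8 T cells 0 to 5 without 1 mouse. The called list genes were 7 with no filter, against 4. Of 109 list medians under other settings 99 stayed within 1 SD between mice; with 0 effector UMIs the medians of the early response and of the cAMP and CREB lists were 0.06 and 0.22, and with no filter that of the JAK, STAT and SOCS list was −0.34. The cause of these shifts was not tested. At this depth 2546 of 32285 genes could be tested.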
